A study of Mus musculus with 15 samples.

Results

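The genes described here make, remodel and take up polyunsaturated fatty acids (PUFA) in the liver. They are the desaturases Fads1 and Fads2, the elongases Elovl2 and Elovl5, the lysophospholipid transporter Mfsd2a, the phospholipid remodelling enzyme Lpcat3 and the phosphatidylcholine-forming enzyme Pemt. They were chosen by name, and all 7 were found among the 16809 genes of the deposited table. Liver RNA of wild-type mice was sequenced in 15 libraries, with 3 in each of 5 groups fed for 6 weeks. Control mice ate standard feed, and model mice a high-fat diet that was 78.8% such feed, 10% egg yolk powder and 10% lard, with 0.2% sodium cholate and 1% cholesterol added. The remaining mice also ate a high-fat diet, whose make-up the labels do not state and which is read as the model's, and were gavaged daily with a flavonoid. The daily dose in mg/kg was 200 for quercetin, 75 for myricetin and 100 for kaempferol. Strain, sex, age, time of day, fasting and gavage of the control and model mice are not given in the sources used here. Whether each library is its own mouse is not stated either, so p-values measure only the spread between libraries, which may be technical.

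PUFA of the omega-6 and omega-3 series are essential, because mammals cannot make their first members. Dietary linoleic and alpha-linolenic acid are desaturated by FADS2, elongated by ELOVL5 and desaturated again by FADS1 to arachidonic and eicosapentaenoic acid, and ELOVL2 extends these towards docosahexaenoic acid (DHA). LPCAT3 inserts linoleic and arachidonic acid into phospholipids, PEMT methylates phosphatidylethanolamine to phosphatidylcholine and uses species rich in long PUFA, and MFSD2A imports lysophosphatidylcholine that carries DHA. In liver, the desaturases and elongases are known as targets of SREBP-1c, the product of Srebf1, and Mfsd2a is known to be induced by fasting.

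The promoter windows of 3 members are printed as examples, those of a transporter that was nearly silent in the model, a desaturase and an elongase. RefSeq windows on GRCm38.p6, from 250 bases before to 50 bases after an annotated start, were found for 6 of the 7 members. Fads1 had no window, so its promoter was not searched. Both strands were searched for the NF-Y box CCAAT, the GC box GGGCGG, the E-box CACGTG, the cAMP response element TGACGTCA, the nuclear receptor hexamer AGGTCA and the sterol response element TCACNCCAC, and the matches stand in capitals. None of these motifs contains another. The windows lie on the minus strand at chr4:122961139-122961438 for Mfsd2a and chr19:10101454-10101753 for Fads2, and on the plus strand at chr9:77917115-77917414 for Elovl5.
Mfsd2a: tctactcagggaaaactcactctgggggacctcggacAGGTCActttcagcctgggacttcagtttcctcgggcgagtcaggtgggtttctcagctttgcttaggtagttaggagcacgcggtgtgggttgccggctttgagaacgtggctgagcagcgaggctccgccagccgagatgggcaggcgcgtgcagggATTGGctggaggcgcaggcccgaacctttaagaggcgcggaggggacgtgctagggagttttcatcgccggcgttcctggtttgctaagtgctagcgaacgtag
Fads2: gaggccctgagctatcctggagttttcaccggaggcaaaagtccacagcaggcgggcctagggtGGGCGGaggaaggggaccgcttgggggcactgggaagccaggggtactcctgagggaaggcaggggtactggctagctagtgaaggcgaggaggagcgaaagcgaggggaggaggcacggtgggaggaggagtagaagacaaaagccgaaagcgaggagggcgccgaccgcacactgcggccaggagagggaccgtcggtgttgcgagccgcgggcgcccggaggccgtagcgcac
Elovl5: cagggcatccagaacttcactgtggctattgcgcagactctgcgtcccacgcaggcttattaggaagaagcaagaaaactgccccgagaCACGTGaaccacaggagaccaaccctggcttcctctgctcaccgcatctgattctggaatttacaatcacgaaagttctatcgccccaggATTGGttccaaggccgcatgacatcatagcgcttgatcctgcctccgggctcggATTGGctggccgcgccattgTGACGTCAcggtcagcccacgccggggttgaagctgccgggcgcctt
Counting from the start, the Mfsd2a window held AGGTCA at -213 and CCAAT on the opposite strand at -54. The Fads2 window held GGGCGG at -186 and no other of these motifs. The Elovl5 window held CACGTG at -161, CCAAT on the opposite strand at -71 and -17, and TGACGTCA at 4. Of all 32851 windows of this length, 37.4% held CCAAT, 35.7% GGGCGG, 16.3% AGGTCA, 7.15% CACGTG and 1.79% TGACGTCA. The sterol element, held by 1.24% of all windows, was in no window of the 6 members searched, which says only that these letters are not there. A match is a description of these letters and not a measured site.

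The libraries held 15853767 to 17576502 expected counts, and 14615 to 14929 genes had counts. All 10 hepatocyte markers of a list that begins with Alb and Ttr were present in every group. Their summed level was 112332 to 126406 CPM (counts scaled to the TMM-adjusted library size) in the control, 84482 to 104910 in the model, 98983 to 114434 under quercetin, 79871 to 96035 under myricetin and 77872 to 103852 with kaempferol. The 12 macrophage markers summed to 136 to 224 CPM in the control, 289 to 403 in the model, 387 to 436 under quercetin, 382 to 537 under myricetin and 487 to 1081 with kaempferol. The 10 endothelial markers summed to 92.0 to 151 CPM in the control, 156 to 211 in the model, 123 to 184 under quercetin, 209.1 to 267 under myricetin and 214 to 269.9 with kaempferol. The adipocyte markers, of which 7 of 8 were in the table, summed to 1219 to 1878 CPM in control, 3710 to 4890 in model, 2273 to 3004 in quercetin, 2120 to 3363 in myricetin and 2003 to 3692 in kaempferol libraries. Of the 3 tested, Car3, which liver also expresses, and Cfd rose in the model (log2 fold changes 1.54 and 7.04), and Fabp4 did not pass (0.67). Plin1 and Retn had no count in the control, model, quercetin and kaempferol groups. The 26 ribosomal protein genes, listed for RNA quality, summed to 7320 to 7632 CPM in the control, 5957 to 6122 in the model, 7041 to 8421 under quercetin, 5687 to 7239 under myricetin and 5912 to 6864 with kaempferol. Of these ribosomal genes, 6 fell in the model against the control, 12 rose with quercetin against the model and 4 fell with kaempferol against the control. Of the 10 hepatocyte markers, 1 fell in the model. The marker and ribosomal sums given here thus move with the diet contrast. The ribosomal and adipocyte sums under quercetin did not overlap the model either. The same held for adipocyte sums under myricetin and kaempferol, and for macrophage and endothelial sums with kaempferol. The part of these values in the results was not tested. In bulk liver RNA, fewer hepatocytes and less RNA per hepatocyte cannot be told apart.

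All 7 members passed the filter on low counts. On the deposited scale per transcript length (TPM), Pemt had the highest level in the control at 449 ± 19.0 (SD, n = 3), and Mfsd2a the lowest at 15.3 ± 2.41. Between them, Fads2 at 199.9 ± 52.0, Elovl2 at 179 ± 7.97, Fads1 at 159 ± 31.4 and Elovl5 at 152 ± 54.8 TPM had overlapping ranges, and Lpcat3 followed at 43.0 ± 6.97 TPM. In the model the TPM of Fads1, 83.5 ± 35.9, stood below that of Elovl5, 102 ± 32.0, with overlapping ranges, and Mfsd2a was at 0.62 ± 0.322 TPM.

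Against standard feed, the model livers had less Fads1 and far less Mfsd2a. In the quasi-likelihood test of edgeR, adjusted over 12658 genes by the Benjamini-Hochberg method, 2 of the 7 members fell in the model. Of all genes, 2.27% fell and 4.46% were called in either direction. The median log2 fold change of the members was -0.34, and that of all genes -0.01. Quercetin against the model had 1 member higher, Mfsd2a, beside 4.06% of all genes higher and 7.82% called in either direction. Myricetin and kaempferol against the model had 0 members called, beside 0.395% and 0.0395% of all genes, and 0 members had an unadjusted p under 0.05 in either. All flavonoid comparisons with the model share its libraries, and those below share the control. Against the control, 2 members were lower under myricetin, where 4.63% of all genes were lower and 9.2% called, and 3 under kaempferol, where 5.55% were lower and 13.4% called. Quercetin against the control had 0 members called, beside 11.6% of all genes. Elovl5 was its only member with an unadjusted p under 0.05. DESeq2 also called 0 members with myricetin or kaempferol against the model, and 1, Elovl5, for quercetin against the control.

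**Figure D1:**
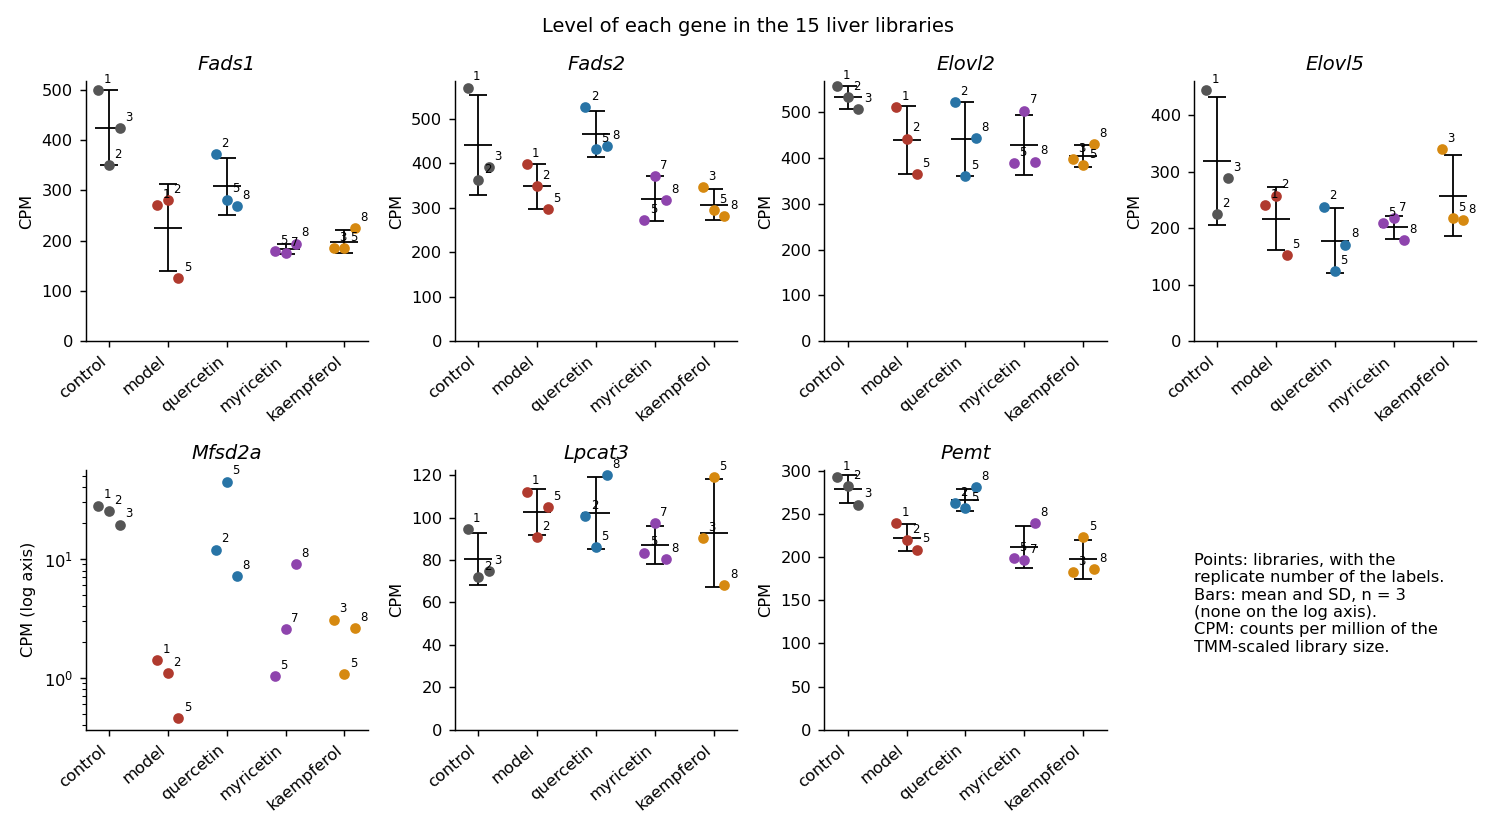
Level of each of the 7 genes in the 15 libraries, in CPM, with a log axis for Mfsd2a and linear axes from 0 for the others. Points are libraries with their replicate numbers, bars in the linear panels are the mean and SD of 3 libraries, and all control libraries lie above all model, myricetin and kaempferol libraries for Fads1 and Mfsd2a.

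Fads1, the delta-5 desaturase (gene 76267, GRCm38.p6 chromosome 19, 10182877 to 10196874), had 499, 350.1 and 425 CPM in control replicates 1, 2 and 3. In model replicates 1, 2 and 5 it had 270.2, 280.1 and 125 CPM. Every model library was below every control library, and model replicate 5 was the lowest of all 15. The log2 fold change of the model against the control was -0.91 ± 0.24 (SE, 95% interval -1.43 to -0.39, edgeR adjusted p = 0.0485). This call lay at the threshold. It was lost when any library of the 2 groups other than model replicate 2 was left out, without control replicates 1, 2 and 3 (edgeR adjusted p = 0.0934, 0.0821 and 0.13) and without model replicates 1 and 5 (0.0742 and 0.0915). It was also lost with no filter on low counts (0.0709) and with only these groups in the fit (0.174), and kept with DESeq2 (0.00331). The authors' deposited table gives Fads1 a log2 fold change of -0.91 with a q value of 0.166.

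Fads1 stood at 373, 282 and 269 CPM in quercetin replicates 2, 5 and 8, at 179.5, 176 and 194 in myricetin replicates 5, 7 and 8, and at 185, 184 and 225 in kaempferol replicates 3, 5 and 8. The quercetin libraries overlapped both the model and the control. The myricetin and kaempferol libraries all lay below the control range. Against the control, Fads1 was lower with myricetin (log2 fold change -1.21 ± 0.24, edgeR adjusted p = 0.00957) and with kaempferol (-1.10 ± 0.24, 0.0103). These 2 calls held whichever library of their groups was left out, with adjusted p up to 0.0361 and 0.0428. With quercetin it differed from the control by -0.46 (95% interval -0.98 to 0.05) and from the model by 0.45 (-0.07 to 0.97), and neither passed. Against the model, the myricetin and kaempferol groups differed by -0.30 (-0.82 to 0.22) and -0.19 (-0.70 to 0.33).

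Fads2, the delta-6 desaturase (gene 56473, chromosome 19, 10062765 to 10101503), lies 81.4 kb from Fads1. It had 571, 362 and 391 CPM in the control and 398, 349.6 and 297 CPM in the model, replicates in the order given above. The ranges overlapped, and the change of -0.34 ± 0.17 did not pass (edgeR adjusted p = 0.255). With quercetin it had 527, 433 and 439 CPM, all above the model libraries, a difference of 0.42 ± 0.17 that did not pass either (adjusted p = 0.143). Non-overlapping ranges between quercetin and model were found for 29.7% of all genes, and for 3 of the 7 members. With myricetin Fads2 had 273, 372 and 317 CPM and with kaempferol 346, 295 and 281 CPM. The kaempferol libraries lay below the control, with a log2 fold change of -0.52 ± 0.17 and an edgeR adjusted p of 0.0509. That value was 0.025 with DESeq2, 0.04999 with its size factors in edgeR and 0.0437 without control replicate 2, so Fads2 passed under those settings.

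The ratio of the 2 desaturases did not overlap between the diets, but its difference did not pass after adjustment. The ratio of Fads1 to Fads2 TPM was 0.723, 0.800 and 0.897 in the control libraries and 0.349 to 0.663 in the 12 high-fat libraries, with no overlap. Its mean was 0.807 ± 0.0871 in the control, 0.524 ± 0.160 in the model, 0.544 ± 0.0397 under quercetin, 0.481 ± 0.0803 under myricetin and 0.541 ± 0.112 with kaempferol (SD, n = 3). The 12 high-fat libraries together differed from the 3 control libraries by -0.65 on the log2 scale (exact permutation test, 2-sided p = 0.0044, the smallest it can give, and 0.0703 after Benjamini-Hochberg adjustment over 32 ratio tests). This ratio was chosen after the counts had been seen, and how many ratios of other gene pairs separate the diets was not counted. Of single genes, 30% had non-overlapping ranges between model and control. The same limits hold for the other ratios given below. For 3 against 3 libraries the smallest exact p is 0.1, which the model, quercetin, myricetin and kaempferol groups each had against the control. The quercetin group did not overlap the control in this ratio although its Fads2 level did.

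**Figure D2:**
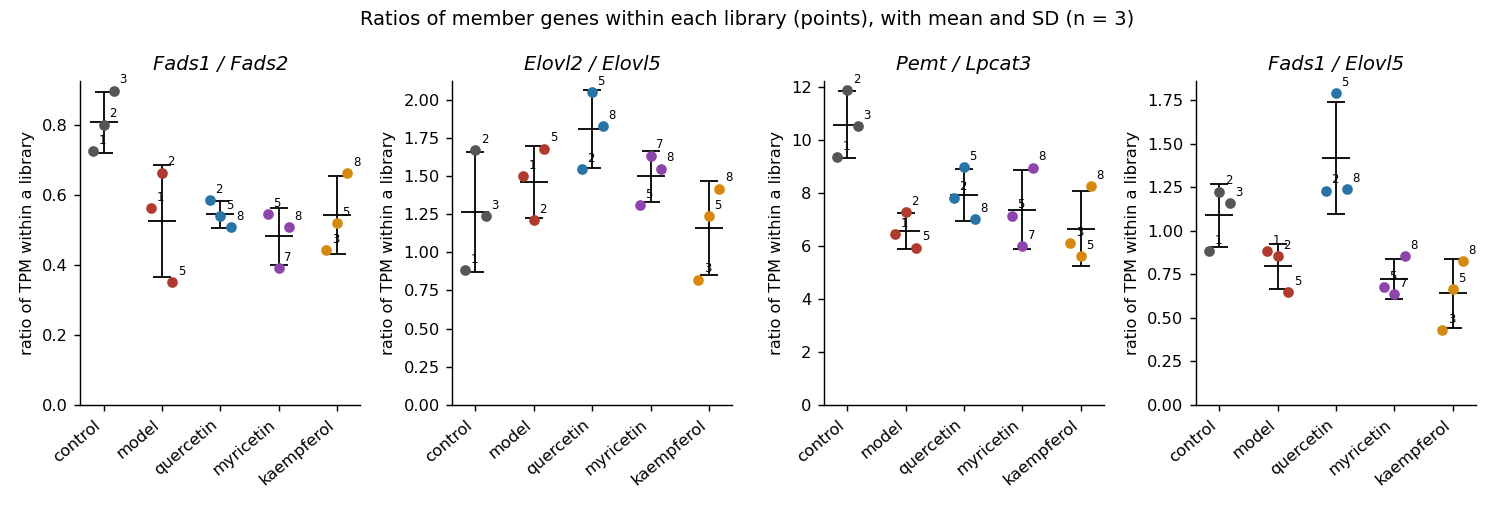
Ratio of TPM of member genes within each library (points, with replicate numbers) and the mean and SD of 3 libraries in each group. The Fads1 to Fads2 ratio of the control libraries starts at 0.723, above the 0.663 of the highest high-fat library, while the Elovl2 to Elovl5 ratio overlaps between the control and every other group.

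Elovl2, the elongase of the longest PUFA (gene 54326, chromosome 13, 41182382 to 41220403), had 558, 534 and 508 CPM in the control and 511, 443 and 364 CPM in the model. It had 522, 360.2 and 443 CPM under quercetin, 389.9, 504 and 392 under myricetin and 397, 384 and 431 with kaempferol. Every myricetin and kaempferol library lay below the control, but no Elovl2 difference passed. The model differed from the control by -0.28 ± 0.15 (edgeR adjusted p = 0.283), and kaempferol by -0.40 ± 0.15 (0.0812, or 0.0436 with only those groups in the fit).

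Elovl5, the elongase that acts between the desaturase steps (gene 68801, chromosome 9, 77917365 to 77984519), varied widely within groups. Control libraries had 445, 225 and 289 CPM, and model libraries 240.5, 258 and 153 CPM. Quercetin libraries had 239, 124 and 171 CPM, myricetin libraries 209.7, 218 and 179, and kaempferol libraries 341, 218 and 214. The lowest mean, 178 ± 57.7 CPM, was that of quercetin, while the quercetin mean of Fads2 was the highest of its 5 groups. Against the control quercetin differed by -0.85 ± 0.30 (95% interval -1.50 to -0.19, edgeR adjusted p = 0.0884), and DESeq2 called it at an adjusted p of 0.0179. The model differed from the control by -0.56 ± 0.30 (0.307). The Fads1 to Elovl5 TPM ratio was 1.42 ± 0.322 under quercetin and 0.795 ± 0.130 in the model, and the groups did not overlap (exact permutation test, 2-sided p = 0.1, the smallest possible, adjusted 0.229).

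Pemt (gene 18618, chromosome 11, 59970614 to 60046561) had narrow ranges in the control, at 293, 282 and 260.5 CPM, and in the model, at 239, 219 and 208 CPM. The ranges did not overlap, which held for 3 of the 7 members and for 30% of all genes in this comparison, but the log2 fold change of -0.32 ± 0.11 did not pass (edgeR adjusted p = 0.0944). With quercetin, Pemt had 262, 256 and 280.5 CPM, within or just under the control range and above every model library, a difference of 0.26 ± 0.11 from the model (adjusted p = 0.16) and of -0.06 (95% interval -0.29 to 0.17) from the control. Myricetin libraries had 198, 196 and 239.5 CPM and kaempferol libraries 182, 223 and 186, all below the control. Against the control, kaempferol libraries were lower (log2 fold change -0.50 ± 0.11, edgeR adjusted p = 0.0079, and at most 0.0397 with a library left out). Myricetin libraries were lower too (-0.40 ± 0.11, 0.0324). This call was lost without control replicates 1, 2 or 3 (0.0746, 0.108 and 0.0556) or myricetin replicates 5 or 7 (0.114 and 0.105). It was also lost with only those groups in the fit (0.0696). It was kept with DESeq2 (0.00793), with its size factors in edgeR (0.0337) and with no filter on low counts (0.0445). Non-overlapping ranges against the control were found for 5 of the 7 members under myricetin, beside 29.7% of all genes, for 5 under kaempferol, beside 33.5%, and for 0 under quercetin, beside 30.6%. Against the model they were found for 0 members with myricetin or kaempferol, beside 18.8% and 18.9% of all genes.

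Lpcat3 (gene 14792, chromosome 6, 124663094 to 124704716) was the only member with a higher mean in the model than in the control. It had 94.8, 71.9 and 74.8 CPM in the control, 112, 91.0 and 105 in the model, 101, 86.1 and 119.9 under quercetin, 83.5, 97.3 and 80.6 under myricetin and 90.3, 119 and 68.3 with kaempferol. Control replicate 1 lay within the model range. No Lpcat3 difference passed, and the model differed from the control by 0.35 ± 0.18 (95% interval -0.02 to 0.73, edgeR adjusted p = 0.267). Its last bases overlap Emg1 on the other strand in GENCODE, and with strand not stated, reads of both genes there cannot be told apart. The Pemt to Lpcat3 TPM ratio was 10.6 ± 1.28 in the control, 6.55 ± 0.681 in the model, 7.93 ± 0.980 under quercetin, 7.36 ± 1.50 under myricetin and 6.65 ± 1.40 with kaempferol. All 12 high-fat libraries lay below all control libraries, a log2 difference of -0.58 (exact permutation test, 2-sided p = 0.0044, the smallest it can give, and 0.0703 adjusted over the 32 ratio tests), which did not pass.

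Mfsd2a (gene 76574, chromosome 4, 122946850 to 122961194) had the largest changes of the 7 genes. Control replicates 1, 2 and 3 had 444, 392 and 313 counts, or 28.1, 25.2 and 19.4 CPM. Model replicates 1, 2 and 5 had 23, 19 and 7 counts, or 1.41, 1.11 and 0.461 CPM. The log2 fold change was -4.59 ± 0.94 (95% interval -6.66 to -2.52, edgeR adjusted p = 0.0249), and the authors' deposited table gives -4.59 with a q value of 8.73e-52. The fold stayed between -4.91 and -4.26 on the log2 scale with any library of the 2 groups left out, but the adjusted p rose to 0.0746 and 0.0643 without control replicates 2 and 3 and to 0.0829, 0.0704 and 0.111 without model replicates 1, 2 and 5. In these fits all 5 groups share an estimate of the spread, and with only the control and model in the fit the adjusted p was 0.000238.

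Quercetin libraries of Mfsd2a had 12.0, 44.8 and 7.14 CPM in replicates 2, 5 and 8. All lay above the model libraries, and they spread 6.28-fold. Only replicate 5 exceeded the control range, at 44.8 against at most 28.1 CPM. Against the model, Mfsd2a rose by 4.40 ± 0.94 (95% interval 2.33 to 6.48, edgeR adjusted p = 0.0186). Leaving out quercetin replicate 5 gave 3.25, still past the threshold, and leaving out model replicate 1, 2 or 5 raised the adjusted p to 0.0653, 0.0814 or 0.0698. It was 0.0925 with only these groups in the fit and 1.05e-05 with DESeq2. The authors deposited a log2 fold change of 4.41 with a q value of 4.8e-05. Against the control the difference was -0.18 with a wide 95% interval of -1.72 to 1.35, and it was -1.34 without quercetin replicate 5, so that library set the closeness of the means.

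Myricetin libraries of Mfsd2a had 1.03, 2.59 and 9.08 CPM and kaempferol libraries 3.10, 1.08 and 2.61 CPM. The myricetin libraries spread 8.82-fold, with replicate 8 highest, and replicate 5 was within the model range. Against the model, myricetin differed by 2.07 (95% interval -0.17 to 4.31) and kaempferol by 1.19 (-1.21 to 3.59), and neither passed. Against the control, kaempferol libraries were lower (log2 fold change -3.40 ± 0.83, edgeR adjusted p = 0.0228). This call was lost without control replicate 2 or 3 (0.063 and 0.0518) or kaempferol replicate 3, 5 or 8 (0.0626, 0.079 and 0.0651). It was kept with only those groups in the fit (0.00526) and with DESeq2 (0.000692). The myricetin difference of -2.51 ± 0.78 did not pass (0.0679), and it passed without myricetin replicate 8 (0.0334, log2 fold change -3.75) and with DESeq2 (0.0233). Quercetin, myricetin and kaempferol are flavonols that differ in the hydroxyl groups of their B ring, with most in myricetin and fewest in kaempferol. Their doses here differ too, so their values stand side by side and were not compared with each other.

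**Figure D3:**
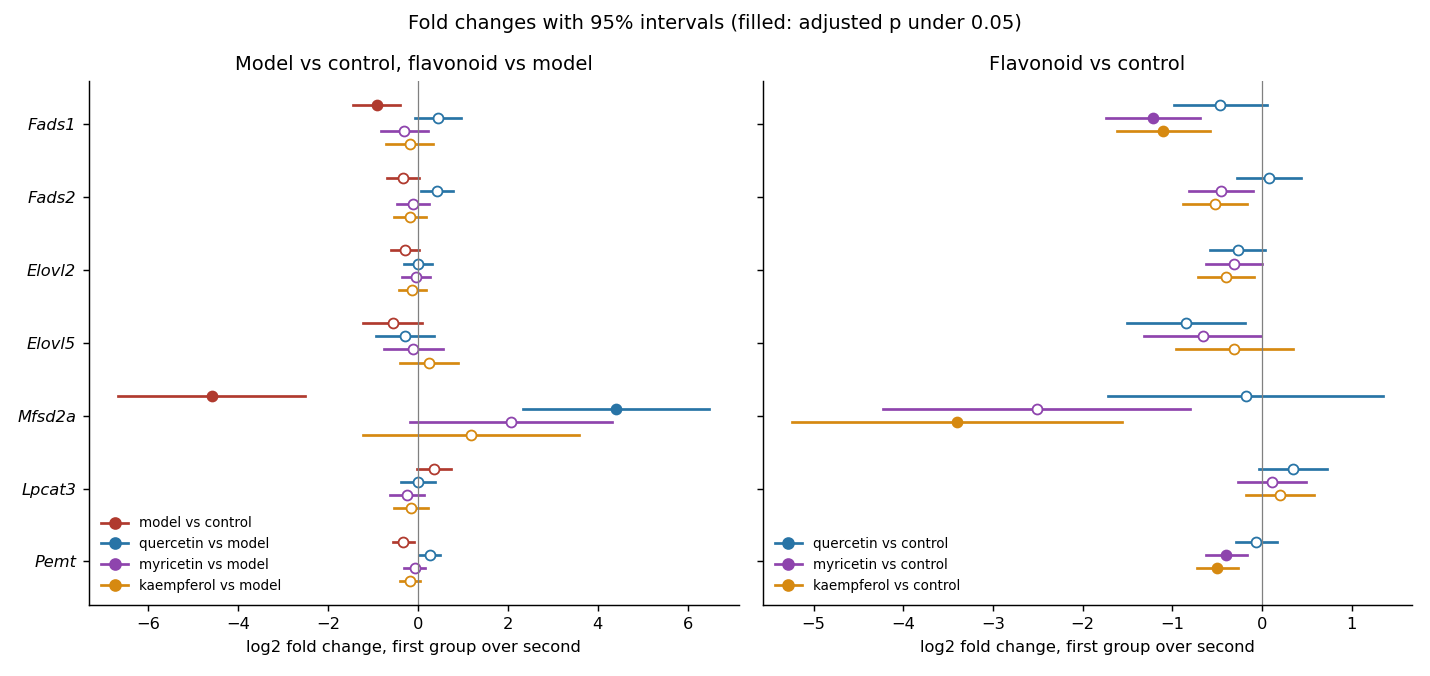
Log2 fold change of each gene (first group over second) with its 95% interval, for the model against the control and each flavonoid against the model (left) and each flavonoid against the control (right). Filled points, found only for Fads1, Mfsd2a and Pemt, had an edgeR adjusted p under 0.05, and the interval of Mfsd2a is the widest in each comparison.

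Srebf1 encodes SREBP-1c, the regulator of these enzymes named above. It had 128 to 211 CPM in the control, 336 to 402 in the model, 499 to 633 under quercetin, 288 to 371 under myricetin and 152 to 196 with kaempferol. Srebf1 rose by 1.20 on the log2 scale in the model (edgeR adjusted p = 0.00413) while Fads1 fell, and it fell by 1.11 with kaempferol against the model (0.0224), where Fads1 differed by -0.19. Fads2 means were 441 CPM in the control, 348 in the model, 466 under quercetin, 321 under myricetin and 307 with kaempferol. Within the high-fat groups they followed the order of the Srebf1 means (model 380, quercetin 545, myricetin 323, kaempferol 176 CPM). No flavonoid difference of Fads2 from the model passed, and its model, myricetin and kaempferol libraries overlapped. Elovl2 means took the same order, from 442 to 404 CPM, with overlapping libraries. Fads1 and Elovl5 means did not, with Fads1 lowest under myricetin (183 CPM) and Elovl5 lowest under quercetin (178 CPM). The control had the lowest Srebf1 mean, 165 CPM, but not the lowest Fads2 mean. Srebf1 RNA is not SREBP-1c activity, and the part of SREBP-1c in the members' levels was not tested. Of 16 regulators tested, 1 rose and 1 fell in the model, with Srebf2, a relative of Srebf1, lower (log2 fold change -0.50). With quercetin against the model 1 fell, Insig2, a retention factor of SREBP (-1.62, edgeR adjusted p = 0.00558). Nr1h3, which encodes LXR alpha, and Ppara differed by 0.07 and 0.19 between model and control, and neither passed. Scd1, a desaturase of saturated fatty acids, differed by 0.30 and Elovl6, an elongase of saturated fatty acids, by -0.15, and neither passed. Elovl6 was lower with myricetin (-0.96, adjusted p = 0.0195) and kaempferol (-0.84, 0.0263) against the control, as Fads1 was.

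**Figure D4:**
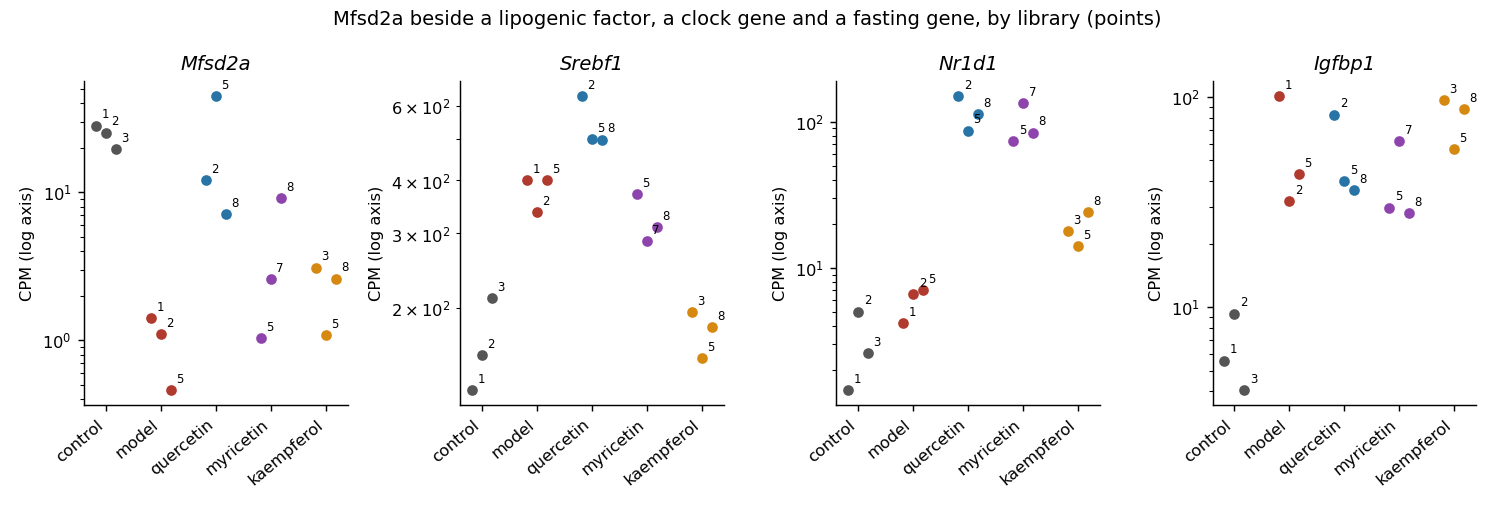
Levels of Mfsd2a, the lipogenic regulator Srebf1, the clock gene Nr1d1 and the fasting-induced gene Igfbp1 in each library (points with replicate numbers, CPM on log axes). Mfsd2a varies 6.28-fold within quercetin, and Nr1d1 lies between 73.3 and 150.5 CPM in both the quercetin and the myricetin libraries. The relation of these genes to Mfsd2a was not tested.

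Of 16 fasting and PPAR alpha responsive genes tested, 3 rose and 1 fell in the model. The list holds genes of the fasted and of the fed state, so its count gives no direction of fasting. Igfbp1, an insulin-repressed binding protein, rose by 3.22, Irs2, an insulin receptor substrate, by 1.98 and G6pc, the last enzyme of glucose release, by 1.40, while Angptl8, a hormone of the fed state, changed by -3.38. Igfbp1 stood at 4.04 to 9.34 CPM in the control, 32.0 to 102 in the model and 36.0 to 82.5 under quercetin. It stood at 28.2 to 61.7 CPM under myricetin and 56.5 to 97.0 with kaempferol. The part of fasting in the Mfsd2a differences was not tested. With quercetin against the model 1 gene of this list rose, Cyp4a14, a fatty acid hydroxylase, by 4.95, and 1 fell, Pdk4, a brake on pyruvate oxidation (log2 fold change -2.64). The fasting and PPAR alpha genes Cpt1a, Angptl4, Fgf21 and Ppargc1a did not pass between model and control or between any flavonoid and the model. Of these, Fgf21 was closest in the model, with a log2 fold change of -1.92 (edgeR adjusted p = 0.0511) at 0.874 against 3.34 CPM. Cpt1a was higher than in the model by 0.28 with quercetin, 0.29 with myricetin and 0.40 with kaempferol, each at an unadjusted p under 0.05. DESeq2 called 7 of the 16 listed genes between model and control.

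Clock genes differed between several groups. Of 19 clock genes, 7 rose and 6 fell with quercetin against the model, and 3 rose and 2 fell under myricetin. Against the control, 8 rose and 5 fell with quercetin, 3 rose and 3 fell with myricetin, and 3 rose and 9 fell with kaempferol. Nr1d1 stood at 1.46 to 5.02 CPM in the control, 4.16 to 7.05 in the model, 86.8 to 150.5 under quercetin, 73.3 to 134 under myricetin and 14.1 to 24.1 with kaempferol. Dbp, a clock output factor, stood at 1.80 to 2.83 CPM in the control, 2.20 to 3.03 in the model and 125.5 to 163 under quercetin. It stood at 5.55 to 25.2 CPM under myricetin and 1.27 to 1.99 with kaempferol. Time of day at collection is not given in the sources used here. Its part in these differences and in those of the members was not tested.

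Among the partner enzymes of elongation and desaturation, 1 of 18 genes fell in the model, with a median of -0.08. This was Tecr, the reductase of the last elongation step, at -0.37 (edgeR adjusted p = 0.046), which was also lower against the control with myricetin (-0.49) and kaempferol (-0.44). With quercetin against the model 1 rose, Cyb5r1, a cytochrome b5 reductase, by 0.70, and 1 fell, Elovl3, an elongase of saturated and monounsaturated chains (log2 fold change -3.17). Of 15 genes for peroxisomal shortening, which completes DHA synthesis, 2 rose in the model with a list median of 0.24, the thiolase Acaa1b by 0.94 and Decr2, a reductase of unsaturated chains, by 0.52. Both were also higher against the control in every flavonoid group, by 0.65 to 0.69 for Acaa1b and by 0.63 to 0.83 for Decr2. With quercetin against the model 1 rose, Abcd2, a peroxisomal importer of very long chains, by 2.35.

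Of the phospholipid genes other than Pemt and Lpcat3, 0 of 15 remodelling genes (median 0.16) and 0 of 14 genes of phosphatidylcholine and phosphatidylethanolamine synthesis (median -0.03) passed in edgeR between model and control. The counts at an unadjusted p under 0.05 were 6 and 2, and DESeq2 called 0 in both lists. With quercetin against the model, Pla2g12a, a secreted phospholipase, rose by 1.75, and 1 of 14 synthesis genes rose and 3 fell. Etnk2, an ethanolamine kinase, rose by 0.72, while Chka, which phosphorylates choline, changed by -1.75, Slc44a1, a choline transporter, by -0.74 and Selenoi, which joins ethanolamine to diacylglycerol, by -0.60. Pla2g12a was also higher with myricetin (1.51, edgeR adjusted p = 0.0252). Of 14 genes of methyl donor supply, which feeds the reaction of PEMT, 1 fell in the model, Mat1a, the liver enzyme of S-adenosylmethionine synthesis (log2 fold change -0.62). Dmgdh, an enzyme of choline breakdown, fell with quercetin against the model (-0.55).

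Of 17 other genes of lipid uptake and binding, 1 rose in the model, Fabp2, a fatty acid binding protein, by 0.94. With quercetin against the model 1 rose, Vldlr, a lipoprotein receptor, by 2.52 from 0.519 to 2.98 CPM. Of 10 acyl-CoA synthetases and thioesterases 0 passed in the model with edgeR, 1 had an unadjusted p under 0.05, and DESeq2 called 1. With quercetin Acsl1, which activates long-chain fatty acids, changed by -1.04 and the thioesterase Acot13 rose by 0.51. Of 15 genes of PUFA oxygenation 1 rose in the model, Ptgs1, a cyclooxygenase, by 0.73, and with quercetin 1 rose, Alox5ap, the partner of 5-lipoxygenase, by 0.93 at 2.13 CPM. DESeq2 called 0 genes of that list with quercetin.

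Over the 15 libraries, the genes with the course most like that of each member were found by Pearson correlation of log2 CPM among 9018 genes. For Mfsd2a these were Slc39a14, a zinc and manganese transporter (r = 0.94), St3gal5, a ganglioside synthase (0.94), and Mat1a (0.93), with r of 0.92, 0.91 and 0.91 without the 2 libraries farthest from the median of Mfsd2a. For Fads1 they were As3mt (0.91), Ugt1a5 (0.90) and Aldoc (0.86), and for Fads2 Cpn1 (0.90), Pink1 (0.85) and Gas6 (0.84). For Pemt they were Abhd17a (0.95), Atp5g1 (0.92) and Endog (0.92), for Lpcat3 Fah (0.87), Hibadh (0.85) and Taldo1 (0.83), for Elovl2 Kif21a (0.87), LTO1 (0.80) and Zfp280b (0.79), and for Elovl5 Acacb (0.82), Wdr37 (0.81) and Mtf2 (0.80). No member was among the 3 genes most like another member. These values describe libraries that fall into 5 groups and share their group differences, so no p is given, and Wdr37 fell to 0.48 without the 2 libraries farthest from the median of Elovl5.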

How the data were processed

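The members, gene lists and tests were chosen with earlier results of these data known. Per the submitters' processing notes, the build was GRCm38.p6 and the tools included RSEM 1.3.1, HISAT2 2.1.0, DESeq2 1.4.5 and Bowtie2 2.3.4.3, whose roles are not stated. The authors deposited expected counts per gene and library, TPM, and their own log2 fold changes and DESeq2 q values (p-values adjusted by the authors), per the file headers. The 15 columns of FPKM were not used. Of the estimated counts, 5.37% were not whole and were rounded.

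The filterByExpr filter kept 12658 of 16809 genes. In edgeR 4.0.16 (R 4.3.3), TMM scaling was followed by a robust quasi-likelihood fit of the 5 group means to the 15 libraries, which leaves 10 residual degrees of freedom. Tests were 2-sided with Benjamini-Hochberg adjustment over all genes tested, at a threshold of 0.05. The script was tested on simulated data. Standard errors and 95% intervals come from the fold change and its F statistic. CPM use the TMM-scaled library size. Ratios of deposited TPM were compared by exact permutation tests over libraries. They were added after the counts had been seen, as were their alternatives.

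Named are the 7 members, up to 3 passing genes per direction and pathway list by smallest p in the model against the control and each flavonoid against the model, the 3 genes most like each member (mean of at least 5 CPM), and fixed companions. Alternatives were DESeq2 1.42.0, its size factors in edgeR, no filter, a fit of only the groups compared, a replicate block and leaving out each library. Some genes that the rule names are not reported here.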

Additional observations from a re-analysis of the deposited data

How the results depend on the processing

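Of 539 refits of the members' fold changes, 466 kept direction and side of the threshold, 35 lost the call, 8 gained one and 30, all of differences that had not passed, changed sign. Counts of called genes below are of all genes unless members are named. For the model against the control, DESeq2 called 981 genes against 565, and members called fell from 2 to 1 with no filter and with only the 2 groups, and to 0 with the block (43 genes). For quercetin against the model, 0 members were called with only the 2 groups. For myricetin against the model (50 genes), DESeq2 called 209 and the 2-group fit 125. For kaempferol against the model (5 genes), DESeq2 called 189, no filter 18 and the 2-group fit 21. Against the control, the 2-group fits called 768 genes (quercetin) and 1075 (kaempferol) and 1 member with myricetin, and DESeq2 called 1 member with quercetin.

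Replicate numbers of the labels did not pair the libraries. Of 14 same-numbered pairs, 2 had a correlation of deviations over 0.1 and 7 one under -0.1, and 1 of 15 libraries correlated best with its own number. With the replicate block the genes called were 236 for quercetin, 5 for myricetin and 1 for kaempferol against the model, and 201, 2 and 298 against the control. Under the block 0 members were called with myricetin or kaempferol against the control. For quercetin against the model it called Fads2 (0.62, adjusted p = 0.0438) in place of Mfsd2a (4.51, 0.208). Differences that changed sign under the block were Elovl5 (0.023) and Lpcat3 (0.11) for quercetin against the model, Fads1 (0.16), Fads2 (0.037), Elovl2 (0.028) and Elovl5 (0.39) for myricetin against the model, Fads1 (0.17), Fads2 (0.015) and Elovl2 (0.044) for kaempferol against the model, and Elovl5 against the control with myricetin (0.078) and kaempferol (0.23).

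With 1 library left out, members called ranged from 0 to 1 for the model against the control and for quercetin against the model, from 1 to 3 for myricetin and 2 to 3 for kaempferol against the control. Genes called ranged from 82 to 919 (model against control), 429 to 788, 13 to 65 and 0 to 39 (quercetin, myricetin and kaempferol against the model), and 669 to 1560, 470 to 1354 and 766 to 1941 (against the control). Differences whose sign depended on 1 library ranged, on the log2 scale, from -0.13 to 0.13 for Elovl2 and -0.14 to 0.10 for Lpcat3 (quercetin against the model), -0.17 to 0.088 for Elovl2 and -0.31 to 0.032 for Elovl5 (myricetin against the model), and -0.24 to 0.0014 for Elovl2, -0.0069 to 0.37 for Elovl5 and -0.38 to 0.026 for Lpcat3 (kaempferol against the model). Against the control they ranged from -0.046 to 0.31 for Fads2 and -1.34 to 0.23 for Mfsd2a (quercetin), and from -0.56 to 0.0045 for Elovl5 and -0.018 to 0.38 for Lpcat3 (kaempferol). The cause of these shifts was not tested. The ratios of Fads1 to Fads2 (-0.72 to -0.57) and of Pemt to Lpcat3 (-0.67 to -0.49) kept their direction in 16 added alternatives each. With 7 to 23 counts in model libraries, the size of the Mfsd2a change is the least precise value here.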

Other observations

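Against the control, 3, 2 and 3 of 15 genes of PUFA oxygenation and 3, 3 and 4 of 15 of phospholipid remodelling were higher with quercetin, myricetin and kaempferol, and 0 were lower. Of all genes, 11.6%, 9.2% and 13.4% were called in either direction, and the share that was higher is not given here. The genes of this paragraph other than Ptgs1 were chosen after their values were seen. Tbxas1, thromboxane synthase, was higher by 1.41 with quercetin, 1.28 with myricetin and 1.91 with kaempferol (edgeR adjusted p = 0.0221, 0.0405 and 0.00332). Ptgs1 was higher by 0.81 with myricetin and 1.27 with kaempferol. Lpcat2, a remodelling enzyme of inflammatory cells, was higher by 1.13, 1.07 and 1.52. Between model and control, Tbxas1 (1.06) and Lpcat2 (0.97) did not pass and Ptgs1 (0.73) did. The summed macrophage markers were higher in the same groups, and their part in these differences was not tested.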
